A study of Triticum monococcum with 54 samples.

Results

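In developing einkorn grain (Triticum monococcum, a diploid wheat), 40 genes stood higher without sulfur (S) than with it at 300, 400 and 600 degree days after anthesis, whether nitrogen (N) supply was high or low. They were taken from the 8649 genes with complete rows in all deposited tables as used here. The table for low N with S ended in an incomplete row, and any gene beyond it is missing. A degree day is a unit of accumulated temperature, and anthesis is the opening of the flower. For each gene, group means were formed from counts scaled to library size (CPM, not per gene length), and the log2 ratio of mean CPM + 1 was taken for S-free over S-supplied grain at each of the 3 stages and both N levels. In 112 genes all 6 ratios were above 0. Of these, 82 reached a mean of 5 CPM in every S-free group of those stages. In 76 of them, or 0.879% of the 8649 genes, the level with both nutrients also changed by less than 2 log2 units from 300 to 600 degree days. The 40 with the highest mean of the 6 ratios are described here, and all 40 passed the expression filter that left 4001 genes for testing. The 40 genes were thus selected on the CPM of 300, 400 and 600 degree days, and those values are given without a test. Grain of 500 degree days, and the step from 100 to 200 degree days, played no part in the choice.

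The grain came from greenhouse plants of the einkorn accession ERGE 35821, which had only demineralized water until anthesis. Nutrient solutions were then supplied between 200 and 700 degree days. The N-S- plants had no N and no S, and the N+S- plants had N at 6 mM and no S. The N-S+ plants had S at 2 mM and N at 0.5 mM, while the N+S+ plants had the same S and N at 6 mM. Sulfur supply was thus compared at equal N only between N+S- and N+S+, since the low-N pair also differed by 0.5 mM N. Grain of 100 and 200 degree days carried only the N-S- label. The 18 groups held 3 biological replicates each, 54 libraries in all, and whether grain was pooled within a replicate is not given in the sources used here.

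Plants take up sulfur as sulfate and reduce it to build cysteine, methionine and glutathione. In wheat grain a large share of the amino acid supply goes into storage proteins of the endosperm, and these protein classes differ in how much cysteine and methionine they carry. Plants short of sulfate are known to raise genes for its uptake and reduction, and cereals short of it shift their storage proteins toward classes that are poor in sulfur. The files give identifiers without names or descriptions, so no gene below can be tied to a role in this pathway, and planned lists of sulfur-deficiency genes and of endosperm, aleurone and pericarp markers could not be examined.

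The libraries held 370241 to 1736179 counts over the 8649 genes, and no pair of the 54 replicate pairs was identical. The 3 N-S- libraries of 500 degree days stood apart from the rest. Their log2 CPM correlated with each other at 0.816 to 0.832, against at least 0.873 between replicates of any other group, and 3295 to 3660 genes were detected in them, against at least 3683 elsewhere. Sequencing lane, which the labels name, also followed some contrasts. All grain of 100 to 300 degree days shared a lane, as did all grain of 400 degree days and all grain of 600 degree days. At 500 degree days the S-free groups shared the lane of 400 and the S-supplied groups the lane of 600, so at that stage S supply and lane cannot be told apart. In whole grain, fewer cells of a type and less RNA per cell cannot be told apart either.

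Among the 40 genes, 3 stood far above the rest in the values that chose them. The mean of the 6 log2 ratios was 3.41 in TmLoc010460, 1.83 in TmLoc011088 and 1.45 in TmLoc002055. The next was 0.64 in TmLoc010803, and from there the values fell gradually to 0.30 in TmLoc004005, 0.29 in TmLoc012402 and 0.29 in TmLoc013011. The 3 genes just outside the limit, TmLoc002366, TmLoc004487 and TmLoc010429, had 0.29, 0.27 and 0.25, so the 40th place marks no break. Between these ends lay TmLoc000415 with 0.60, TmLoc011270 and TmLoc011398 with 0.56 each, TmLoc003295 and TmLoc012104 with 0.55 each and TmLoc006613 with 0.51.

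**Figure D1:**
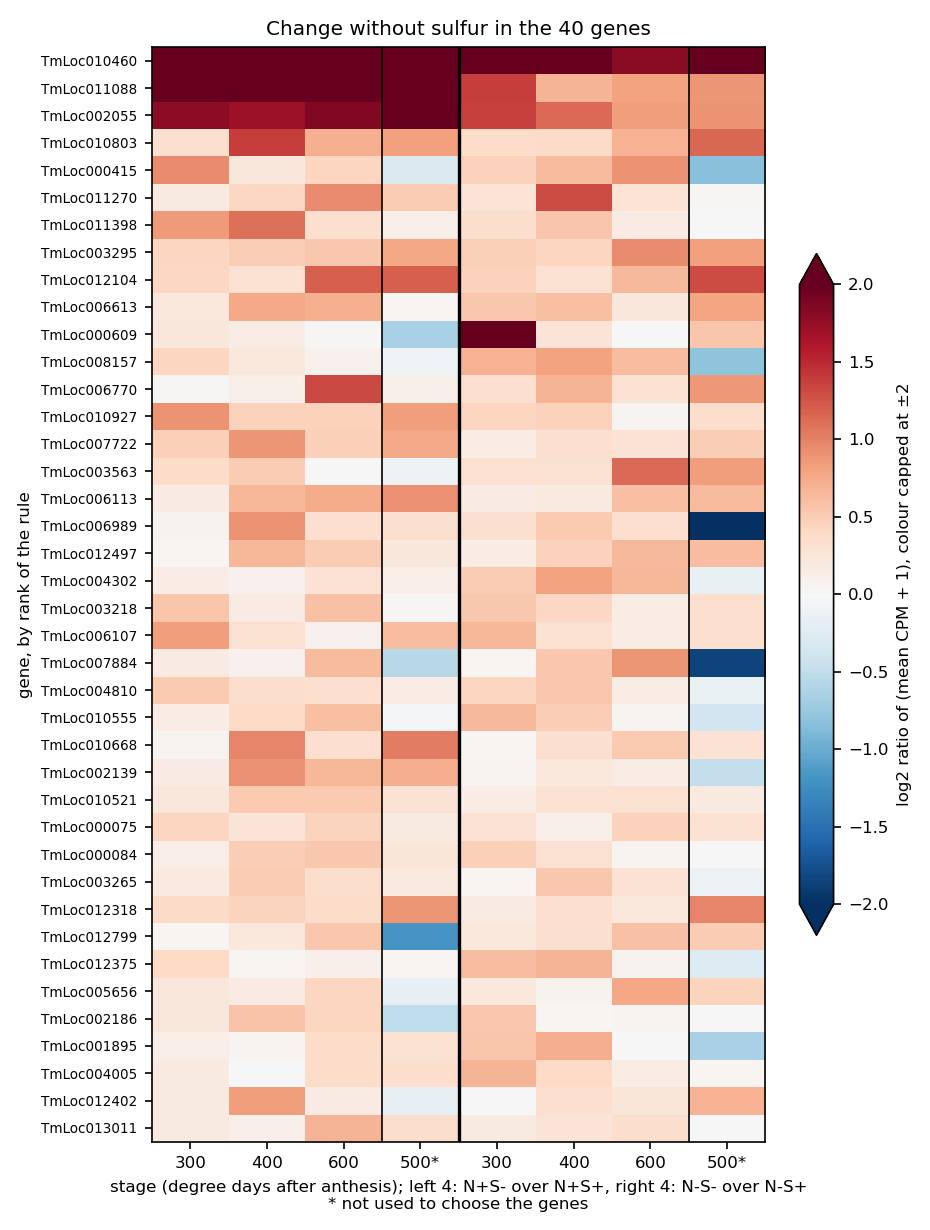
Log2 ratio of mean CPM + 1 without over with S for the 40 genes (rows, by rank) at each stage, at high N in the left block and at low N in the right block, with the colour capped at 2 in either direction. The 3 columns on the left of each block chose the genes and are above 0 by construction, while the starred column of 500 degree days did not choose them and holds ratios of both signs.

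Apart from the 3 leading genes most ratios were small, with TmLoc000609 at 300 degree days and low N, at 2.22, the highest of the other 37 genes. At high N, 37, 35 and 35 of the 40 genes differed by less than 2-fold at 300, 400 and 600 degree days, and at low N 36, 37 and 38 did. Medians over the 40 genes lay between 0.23 and 0.47. A ratio above 0 did not mean that the replicates were separate. All 3 S-free libraries lay above all 3 S-supplied ones in 13, 16 and 15 genes at high N, and in 16, 8 and 12 at low N, at the successive stages. Over all 4001 tested genes the same held for 8.02%, 7.02% and 6.85% at high N and for 9.3%, 5.15% and 5.6% at low N, and since these contrasts chose the genes nothing is read from the difference. Only TmLoc010460 and TmLoc002055 were free of overlap in all 6 comparisons, a pattern that 0.05% of tested genes, these 2, showed. Another 5 genes were free of overlap in none of the 6, and 16 in a single one.

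TmLoc010460 was low with S and higher without it at every stage from 300 degree days. At 300 degree days its libraries read 64.9, 90.5 and 124 CPM in N+S- grain and 48.0, 61.7 and 82.0 CPM in N-S- grain. The S-supplied libraries read 5.04, 3.18 and 6.47 CPM at high N and 1.85, 7.24 and 5.04 CPM at low N. They rested on few reads, with 5, 3 and 6 counts at high N and 2, 7 and 5 at low N. The S-free and S-supplied values did not overlap. Levels without S then rose to a mean of 266 ± 61.5 CPM (SD, n = 3) in N+S- and 93.6 ± 26.7 CPM in N-S- grain at 600 degree days. With S they ended at 11.0 ± 8.47 CPM at high N and 25.9 ± 5.60 CPM at low N, the former from 10, 1 and 14 counts.

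TmLoc011088 and TmLoc002055 had higher means with S than TmLoc010460 did, and were again highest in N+S- grain. At 400 degree days the N+S- libraries of TmLoc011088 read 253, 233 and 221 CPM, and those of N-S- grain 49.9, 53.8 and 90.9 CPM. The N+S+ libraries read 20.2, 22.7 and 28.4 CPM and the N-S+ libraries 35.4, 28.7 and 56.1 CPM, so that the low-N groups overlapped. These S-supplied libraries held 10, 13 and 15 counts at high N and 15, 12 and 24 at low N. For TmLoc002055 the means at 400 degree days were 291 ± 45.5 CPM in N+S- and 124 ± 17.1 CPM in N-S- grain, against 87.9 ± 15.5 CPM in N+S+ and 56.0 ± 15.9 CPM in N-S+ grain. In all 3 genes the N+S- mean was the highest of the 4 treatments at every stage from 300 to 600 degree days.

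**Figure D2:**
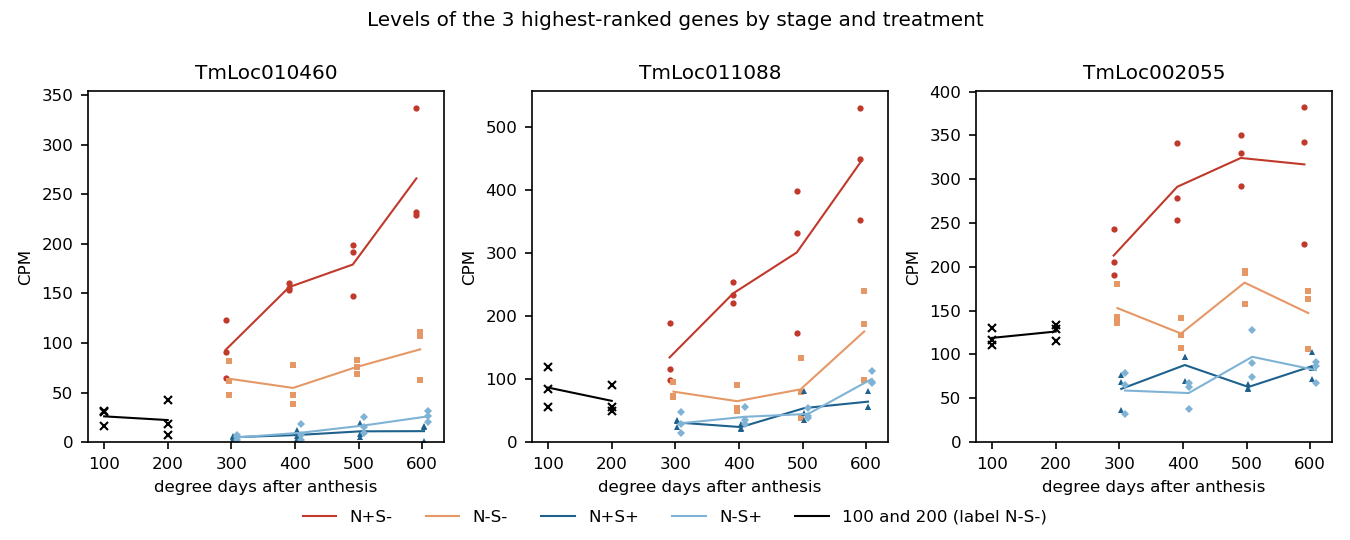
CPM (linear axes from 0) of the 3 leading genes against degree days after anthesis, with a point for each library and lines through the group means. The N+S- line is on top from 300 degree days on, and the mean of 200 degree days lies between the S-free and S-supplied means of 300 degree days in all 3 genes.

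At 500 degree days, the stage kept out of the choice, 9 of the 40 genes rose and 1 fell without S when both N levels were averaged (edgeR quasi-likelihood test, adjusted p under 0.05 over 4001 genes). Over all tested genes 0.5% rose, which is 20 genes, and 1.45% fell. The median log2 fold change was 0.22 over the 40 genes and -0.06 over all tested genes, and 29 of the 40 changes were above 0, against 40.9% of all. The genes that rose were TmLoc010460, TmLoc011088, TmLoc002055, TmLoc012104, TmLoc010803, TmLoc012318, TmLoc003295, TmLoc006113 and TmLoc010927, and TmLoc006989 fell. Their order followed the choosing values only in part. Of the 10 highest-ranked genes 9 had a change above 0 and 6 rose, while of the 10 lowest-ranked 6 were above 0 and 1, TmLoc012318, rose. Among ranks 41 to 76, which also met the rule, 17 of 36 were above 0 and 1 rose.

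TmLoc010460 changed most. Its libraries read 192, 147 and 198 CPM in N+S- and 75.5, 83.3 and 68.5 CPM in N-S- grain of 500 degree days. With S they read 8.17, 5.49 and 18.9 CPM at high N and 15.4, 9.22 and 25.7 CPM at low N, the former from 5, 3 and 10 counts. The S-free and S-supplied libraries did not overlap, and the fitted log2 fold change averaged over N levels was 3.10 ± 0.34 (SE; adjusted p = 3.27e-10), or 8.56-fold.

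TmLoc002055 read 330, 292 and 350 CPM in N+S- and 193, 196 and 157 CPM in N-S- grain. The S-supplied libraries read 62.1, 60.4 and 66.1 CPM at high N and 128, 73.8 and 90.0 CPM at low N. The groups did not overlap and the averaged change was 1.63 ± 0.18 on the log2 scale (adjusted p = 3.27e-10). TmLoc011088 read 398, 173 and 331 CPM in N+S- grain against 45.8, 34.8 and 81.2 CPM in N+S+ grain. Its N-S- libraries, with 79.7, 37.5 and 134 CPM, overlapped the N-S+ libraries with 41.7, 53.8 and 38.6 CPM. The averaged change was 1.71 ± 0.26 (adjusted p = 3.84e-06).

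The other 6 genes that rose did so by smaller amounts, and none of them had a change that differed between N levels by the interaction test. TmLoc012104 read 238, 265 and 277 CPM in N+S- and 325, 212 and 348 CPM in N-S- grain, against 157, 69.6 and 113 CPM in N+S+ and 66.4, 106 and 183 CPM in N-S+ grain. All S-free libraries of this gene lay above all S-supplied ones, with an averaged change of 1.25 ± 0.18 (adjusted p = 1.7e-06). TmLoc010803 had 919 ± 168 CPM in N+S- and 1264 ± 245 CPM in N-S- grain, against 519 ± 29.9 and 567 ± 291 CPM with S at high and low N (SD, n = 3). One N-S+ library, at 900 CPM, lay above 2 of the 3 N+S- libraries (777 and 877 CPM) though below every N-S- library, and the averaged change was 0.99 ± 0.17 (adjusted p = 5.18e-05).

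TmLoc012318 stood at 257 ± 26.9 CPM in N+S- and 265 ± 39.4 CPM in N-S- grain, against 139 ± 42.0 and 134 ± 31.2 CPM with S, a change of 0.93 ± 0.15 (adjusted p = 2.62e-05). It ranked only 32nd by the choosing values, and its levels with S were lower at 500 degree days than at 400 and 600 (233 ± 16.5 and 194 ± 16.9 CPM in N+S+ grain), a step that crosses lanes and was not tested. TmLoc006113 rose by 0.77 ± 0.11 (adjusted p = 2.27e-06) and TmLoc010927 by 0.60 ± 0.14 (adjusted p = 0.0131). TmLoc003295 averaged 48293 ± 10185 CPM in N+S- and 41293 ± 4528 CPM in N-S- grain, against 28275 ± 1554 and 23299 ± 2113 CPM with S. Its change was 0.80 ± 0.19 (adjusted p = 0.0155). The call for TmLoc010927 was lost in 3 of 18 alternative fits, and the other 8 genes kept theirs in all 18.

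**Figure D3:**
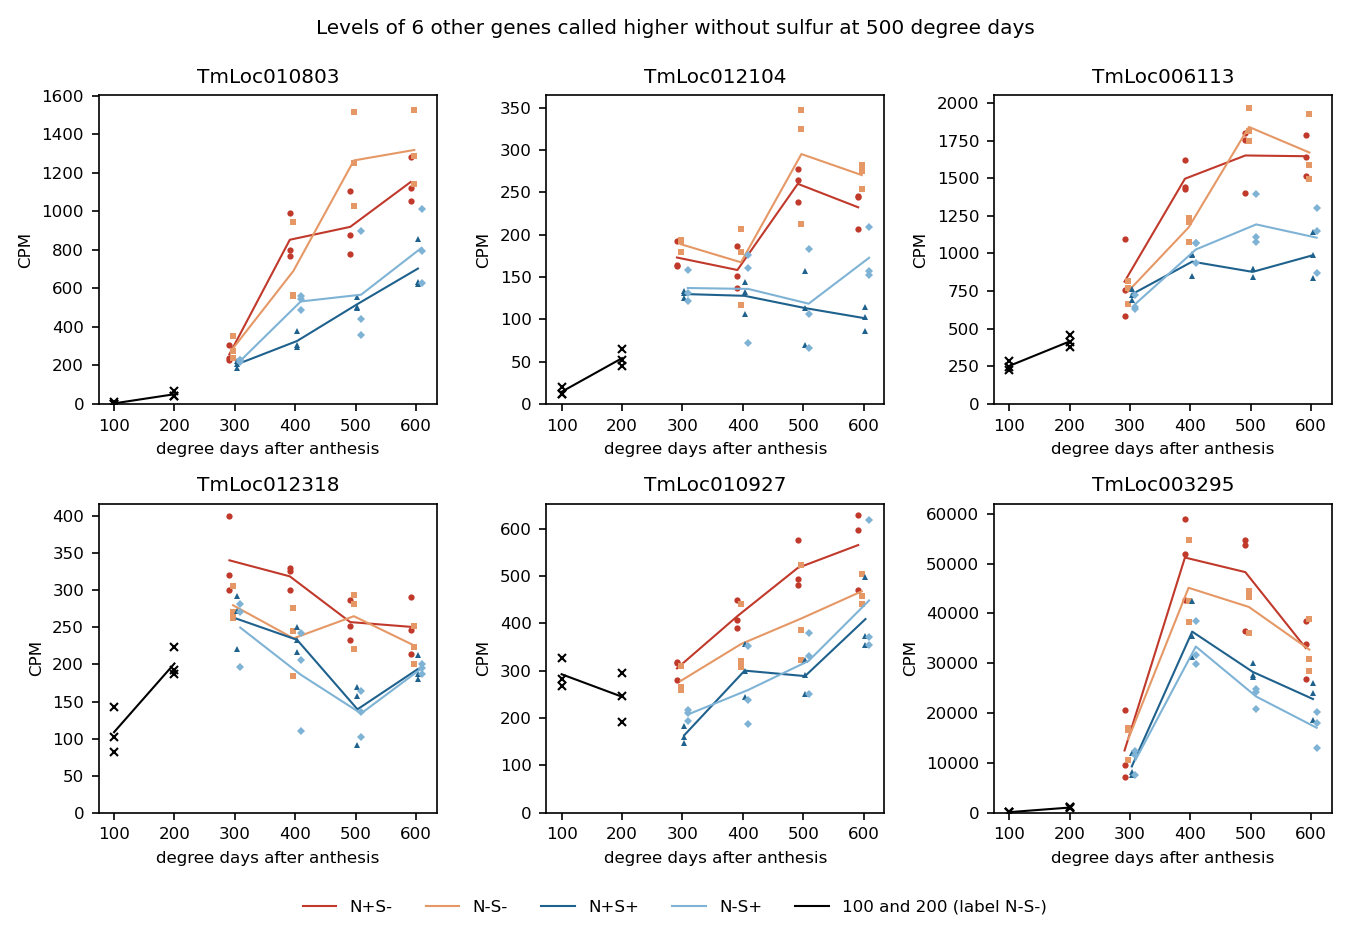
CPM (linear axes from 0) against degree days after anthesis for the 6 genes that rose without S at 500 degree days beside the 3 leading ones, with a point for each library and lines through the group means. At 500 degree days both S-free means lie above both S-supplied means in each of the 6 panels.

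Separately at high N, 7 of the 40 genes rose without S and none fell, against 0.3% and 0.4% of tested genes. An unadjusted p under 0.05 was found in 14 of the 40, in either direction, and DESeq2 called 8 higher and none lower. The changes were 4.05 ± 0.49 for TmLoc010460, 2.49 ± 0.35 for TmLoc011088, 2.36 ± 0.26 for TmLoc002055, 1.19 ± 0.26 for TmLoc012104, 0.91 ± 0.16 for TmLoc006113, 0.88 ± 0.22 for TmLoc012318 and 0.84 ± 0.20 for TmLoc010927. Without N+S+ replicate 2 only 4 genes were called. All 3 N+S- libraries lay above all 3 N+S+ libraries in 15 genes and below in 1, against 6.75% and 5.87% of tested genes.

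At low N, 6 genes rose and 1 fell, against 0.4% and 2.42% of tested genes. TmLoc010460 changed by 2.15 ± 0.46, TmLoc012104 by 1.31 ± 0.25, TmLoc010803 by 1.15 ± 0.24, TmLoc012318 by 0.99 ± 0.22, TmLoc002055 by 0.90 ± 0.25, TmLoc006113 by 0.63 ± 0.16 and TmLoc006989 by -2.28 ± 0.36. This comparison rests on the N-S- libraries that stood apart, and a fit to its 6 libraries alone, which tested 2520 genes, called none of the 40. All 3 N-S- libraries lay above all 3 N-S+ libraries in 9 genes and below in 1, against 3.45% and 8.72% of tested genes. Separation at both N levels was found in 7 genes, which are TmLoc010460, TmLoc002055, TmLoc010803, TmLoc003295, TmLoc012104, TmLoc006113 and TmLoc012318, out of 13 tested genes (0.325%) with that pattern.

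**Figure D4:**
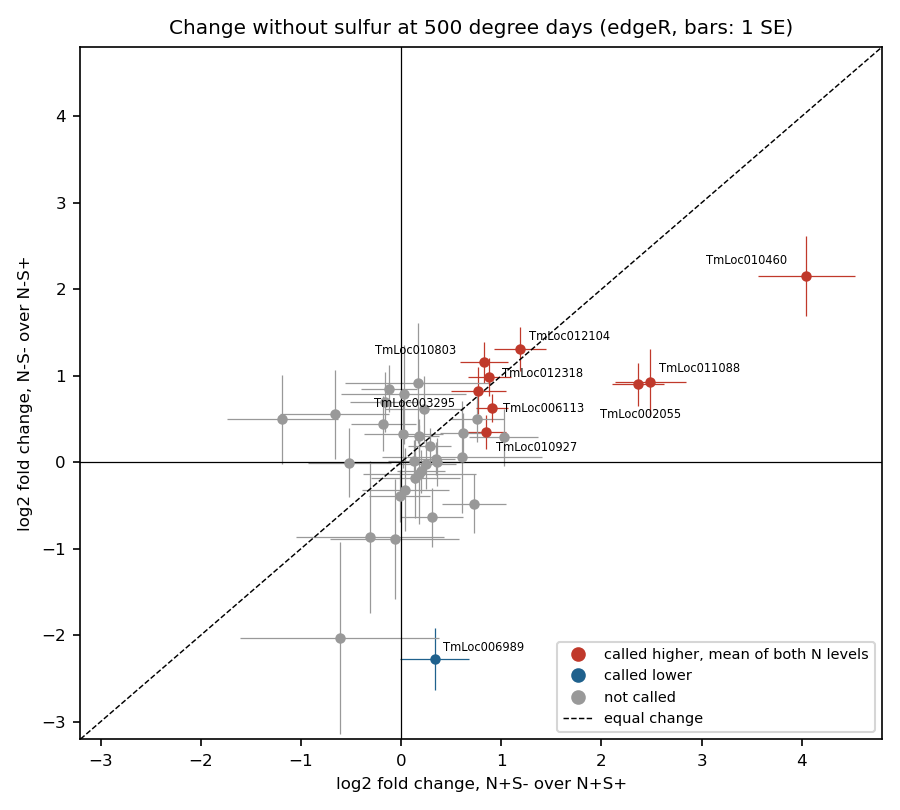
Fitted log2 fold change without S at 500 degree days at high N (horizontal) and low N (vertical) for the 40 genes, with bars of 1 SE and a dashed line of equal change. The 9 genes that rose on average lie in the upper right, with TmLoc010460, TmLoc011088, TmLoc002055, TmLoc006113 and TmLoc010927 of them below the line. TmLoc006989, which fell on average, has the lowest value at low N.

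The lane of the S-free libraries of 500 degree days also held all grain of 400, and the lane of the S-supplied ones all grain of 600. The S-free libraries of 500 degree days were therefore also set against the S-supplied libraries of both neighbouring stages. Against the S-supplied libraries of 400 degree days, on their own lane, all 3 S-free libraries of 500 lay above all 3 in 16 of the 40 genes at high N and in 7 at low N, a pattern held by 13.6% and 6.95% of tested genes. At high N, 7 genes had all 3 N+S- libraries above all 9 N+S+ libraries of 400, 500 and 600 degree days, against 0.775% of tested genes. They were TmLoc010460, TmLoc011088, TmLoc002055, TmLoc012104, TmLoc006113, TmLoc006107 and TmLoc002139. At low N the same held for 5 genes, against 0.675%, namely TmLoc010460, TmLoc002055, TmLoc010803, TmLoc012104 and TmLoc006113. These comparisons set different stages against each other, and S supply and lane at 500 degree days still cannot be told apart. The S-supplied libraries of 400 and 600 degree days also helped to choose the 40 genes. Nothing is therefore read from the difference between these shares.

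The remaining 30 genes did not pass the test at 500 degree days when both N levels were averaged. Fitted changes were above 0 at both N levels in 22 of the 40 genes, against 20% of tested genes, at high N alone in 8, at low N alone in 5 and at neither in 5. TmLoc000415, TmLoc011270, TmLoc011398 and TmLoc006613 were among the 10 highest-ranked genes and yet showed no call. TmLoc011398 averaged 390 ± 40.0 CPM in N+S- and 358 ± 60.4 CPM in N+S+ grain, and 460 ± 119 against 458 ± 251 CPM at low N, a change of 0.07 ± 0.18 (adjusted p = 0.964). TmLoc000415, TmLoc011270 and TmLoc006613 rested on few reads. The 3 S-free N-S- libraries of TmLoc000415 held 1, 0 and 6 counts and its change was -0.59 ± 0.57 (adjusted p = 0.748), that of TmLoc011270 was 0.34 ± 0.51 (adjusted p = 0.869), and that of TmLoc006613 was 0.41 ± 0.42 (adjusted p = 0.77). The lowest averaged change, -1.32 ± 0.75 in TmLoc007884 (adjusted p = 0.456), came from 0 to 13 counts per library.

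TmLoc006989 was the only one of the 40 genes that fell in the averaged test, although 11 of the 40 had an averaged change below 0. Its N-S- libraries of 500 degree days read 14.7, 16.7 and 26.7 CPM against 134, 79.9 and 74.3 CPM in N-S+ grain. These N-S- values came from 7, 8 and 16 counts, in the libraries that stood apart. At high N the gene read 53.7, 38.6 and 48.7 CPM without S and 37.6, 38.4 and 35.9 CPM with it. The low-N groups did not overlap, and the N-S- mean of 19.4 CPM was the lowest and the N-S+ mean of 96.2 CPM the highest of its 18 group means. Its change was -2.28 ± 0.36 at low N (adjusted p = 4.71e-05) and 0.34 ± 0.35 at high N (adjusted p = 1). Averaged over both it was -0.97 ± 0.25 (adjusted p = 0.0264), a call lost in 8 of 18 alternative fits.

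Whether the change without S differed between N levels was tested with the interaction, in which a lane effect additive on the log scale cancels. As the low-N pair also differed by 0.5 mM N, the interaction does not isolate S. It was positive, meaning a larger change at high N, in 25 of the 40 genes, against 56.9% of tested genes. The two-sided test called 2 genes, against 0.525% of tested genes with a positive and 0.075% with a negative interaction. They were TmLoc006989, with 2.61 ± 0.50 (adjusted p = 0.00486), and TmLoc002055, with 1.46 ± 0.35 (adjusted p = 0.0483). A fit to the 12 libraries of 500 degree days alone called neither. The interactions of TmLoc010460, 1.90 ± 0.70 (adjusted p = 0.237), and TmLoc011088, 1.56 ± 0.52 (adjusted p = 0.189), did not pass.

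The effect of N itself was compared within a lane. Among the S-free groups, 6 of the 40 genes had a higher level with N (N+S-) than in unfed grain (N-S-) and none a lower one in edgeR's test, against 3.57% and 1% of tested genes. The unadjusted p was under 0.05 in 12, and DESeq2 called 3 higher and 1 lower. All 3 N+S- libraries lay above all 3 of N-S- in 8 genes and below in 2, against 12.4% and 5.27% of tested genes. TmLoc011088 averaged 301 ± 115 against 83.6 ± 48.2 CPM, a change of 1.82 ± 0.34 (adjusted p = 0.000561). TmLoc006989 changed by 1.25 ± 0.38, TmLoc010460 by 1.24 ± 0.38, TmLoc002139 by 1.20 ± 0.33 and TmLoc001895 by 1.17 ± 0.33, and TmLoc002055, the last of the 6, by 0.84 ± 0.23. In TmLoc002139 the N+S- libraries read 82.9, 69.9 and 95.5 CPM and the N-S- libraries 29.4, 43.7 and 35.1 CPM, with no overlap. Over the 40 genes the median change was 0.10, the same as over all tested genes. These calls were among the least stable: the number called was 0 in a fit to the 6 libraries alone and 1 without N+S- replicate 1 or 3.

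With S, none of the 40 genes differed between N+S+ and N-S+ grain in edgeR's test, and none of the 4001 tested genes did (0%). Of the 40 genes, 4 had an unadjusted p under 0.05, and DESeq2 called none of them. The N+S+ libraries lay wholly above the N-S+ ones in 2 of the 40 genes and wholly below in 5, against 5.82% and 6.17% of tested genes. The median change over the 40 was -0.0029 on the log2 scale and 20 were above 0. TmLoc010460 averaged 10.8 ± 7.08 CPM in N+S+ and 16.8 ± 8.33 CPM in N-S+ grain, and the change was -0.65 ± 0.59 (adjusted p = 0.819). At the stages that chose the genes, the median log2 ratio of high over low N stayed between -0.083 and 0.047 with S and between 0.031 and 0.071 without it.

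From 100 to 200 degree days, before or at the start of feeding and on a single lane, 13 of the 40 genes rose and none fell in edgeR's test. DESeq2 called the same number higher and 1 lower, and the unadjusted p was under 0.05 in 14. Among all tested genes 14.1% rose and 6.5% fell, the libraries lay wholly above in 14 of the 40 genes and wholly below in 2, against 22.8% and 20.1%, and the median change was 0.25 over the 40 genes and 0 over all. TmLoc007722 went from 0.680 ± 0.623 to 36.2 ± 12.9 CPM, a log2 fold change of 5.48 ± 0.48 (adjusted p = 1.54e-14), and rested on 5 counts in all at 100 degree days. TmLoc000075 went from 23.5 ± 11.6 to 638 ± 54.9 CPM, a change of 4.76 ± 0.23 (adjusted p = 4.36e-25). TmLoc007884, TmLoc010803 and TmLoc010668 followed with 4.72 ± 0.97, 3.99 ± 0.39 and 3.59 ± 0.59, from 4, 23 and 5 counts in all at 100 degree days. Of the 9 genes that rose without S at 500 degree days, 5 also rose here, namely TmLoc010803, TmLoc003295, TmLoc012104, TmLoc012318 and TmLoc006113. The 3 leading genes had changes of -0.21 ± 0.39 in TmLoc010460, -0.40 ± 0.31 in TmLoc011088 and 0.09 ± 0.22 in TmLoc002055, and none passed.

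**Figure D5:**
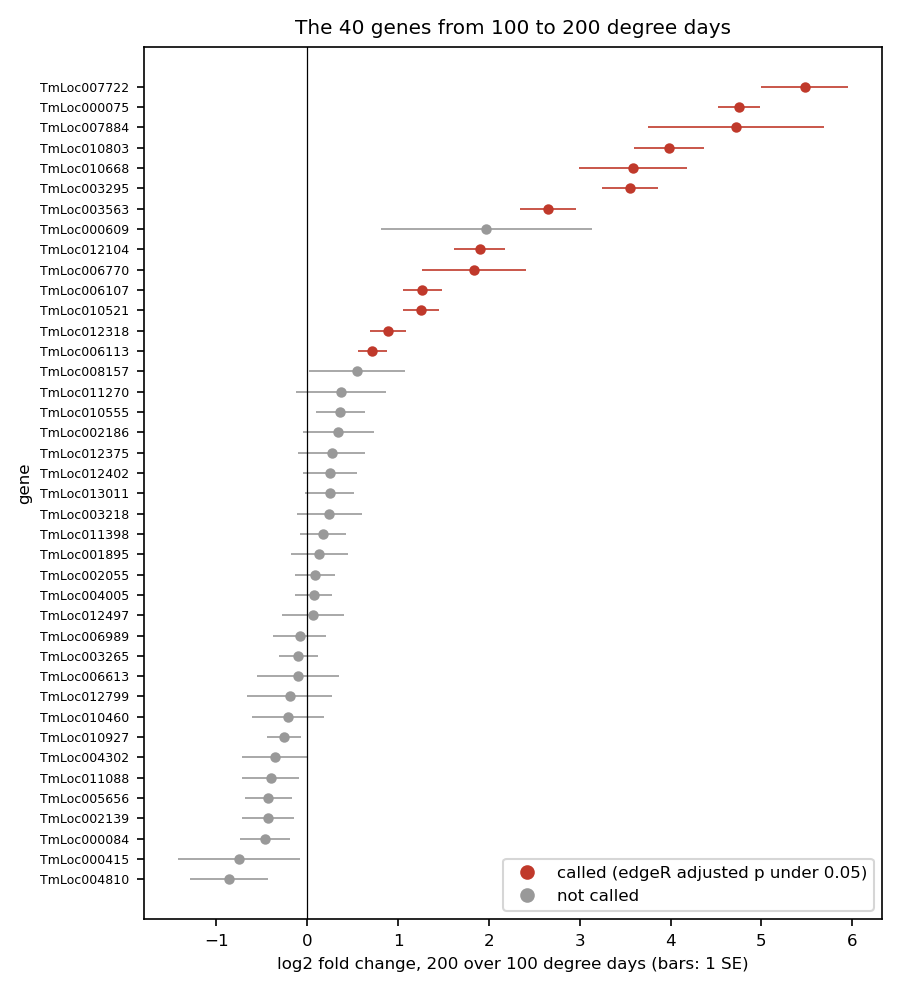
Fitted log2 fold change from 100 to 200 degree days in N-S- grain for the 40 genes, sorted, with bars of 1 SE. The 13 genes that passed the test (red) all lie to the right of 0, up to 5.48 in TmLoc007722.

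The level of 200 degree days also gives a starting point on the same lane for the grain of 300. In 20 of the 40 genes all 4 treatments stood above it at 300 degree days and in 8 all stood below, against 31.9% and 37.7% of tested genes. In 6 genes both S-free means were above and both S-supplied means below the starting level (3.02% of tested genes). They were TmLoc010460, TmLoc011088, TmLoc002055, TmLoc011398, TmLoc010927 and TmLoc012375. Since the rule used these contrasts of 300 degree days, nothing is read from the difference between these shares. TmLoc010460 read 42.1, 6.75 and 17.8 CPM at 200 degree days, then averaged 93.0 ± 29.4 CPM in N+S- and 63.9 ± 17.1 CPM in N-S- grain but 4.90 ± 1.65 CPM in N+S+ and 4.71 ± 2.71 CPM in N-S+ grain. The 200 degree day library at 6.75 CPM lay within the range of the S-supplied libraries of 300 degree days, and all 3 lay below the S-free ones. In TmLoc002055 the mean of 126 ± 9.35 CPM moved to 213 ± 27.1 and 153 ± 24.1 CPM without S at high and low N, and to 60.7 ± 20.8 and 58.8 ± 23.8 CPM with it.

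The stage of the highest mean varied among the 40 genes. In N+S+ grain 16 had their highest mean at 300, 4 at 400, 9 at 500 and 11 at 600 degree days. In N+S- grain the numbers were 17, 6, 4 and 13. The rule had left out genes whose N+S+ level changed beyond its limit from 300 to 600 degree days. The means of 300, 400 and 600 degree days also chose the genes, and these stages lie on different lanes. Shares of tested genes were not taken for these counts, and a common time course was not tested. The highest of the 4 treatments at 500 degree days was N+S- in 17 genes and N-S- in 16, against 25.9% and 23.7% of tested genes, and N-S+ in 6 and N+S+ in 1. Their listed lengths ran from 104 to 9344 bases with a median of 1762.5, against 1583 over the tested genes. With TmLoc003295 the 40 genes took a mean of 6.31% of all counts in the N+S- libraries of 500 degree days. Without it they took 0.829% to 1.12% of these counts in the N-S- libraries of that stage and 0.875% to 1.05% in the N+S- libraries. With S the share was 0.396% to 0.611% at low and 0.449% to 0.520% at high N, so the ranges did not overlap. These shares are not scaled for library composition. The TMM factors of these libraries ran from 0.998 to 1.15 without S and from 0.718 to 0.847 with it. A gene of equal CPM thus has a higher share without S. Supply of S and lane cannot be told apart at this stage either, so nothing is read from the separation of the shares.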

How the data were processed

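Per the labels' protocols, libraries of polyadenylated RNA that keep strand were made from whole grain and read from both ends, at 125 bases an end. The submitters' processing notes name BWA 0.7.12-r1039, CASAVA 1.8.4 and edgeR. Which reference was mapped to, and how reads were counted, is not given in the sources used here. Per the file headers, each treatment has its own deposited table of raw counts and normalized values. The deposited raw counts were used, and the 54 normalized columns were not. Only the 8649 genes with complete rows in all 4 tables as used here entered. The N-S+ table as used here ended after these genes in 1 incomplete row, which was left out. Any gene beyond that row is missing from the rule, the scaling and the tests.

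CPM used TMM factors over these genes. For testing, filterByExpr kept 4001 genes, edgeR 4.0.16 (R 4.3.3) fitted group means by quasi-likelihood across the 54 libraries jointly, and the Benjamini-Hochberg adjustment ran over these 4001 genes. DESeq2 1.42.0 was an alternative. A gene is said to rise or fall at an adjusted p under 0.05. The SE of a log2 fold change is its size over the root of F. P-values set a change against the spread between replicates, as estimated over the 54 libraries jointly and not from the compared groups alone. The number of reads limits the precision for genes with few counts.

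Named were the 10 highest-ranked genes, the called genes of each comparison (at most 10 a direction for S, otherwise 5), the 3 lowest averaged changes at 500 degree days and the 3 genes on each side of the limit. A few others were named after their values were seen: TmLoc006107 and TmLoc012375 as members of small counts, TmLoc000609 for its single high ratio, and the called genes beyond the limit of 5. The 40 genes, the rule and the planned gene lists were chosen with earlier results of these data known. Replicate numbers did not pair the samples: deviations of same-numbered libraries correlated between -0.083 and 0.067 in the 5 comparisons of 2 groups.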

Additional observations from a re-analysis of the deposited data

Results flagged for a closer look

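In 2 genes the change without S at 500 degree days differed between the N levels by the test of the interaction (edgeR, log2 scale). TmLoc006989 had an interaction of 2.61 ± 0.50, with a fall without S at low N (-2.28 ± 0.36) and no call at high N (0.34 ± 0.35), and its call was lost in 1 of 18 alternative fits. TmLoc002055 had 1.46 ± 0.35, being higher without S at both N levels and more so at high N, and its call was lost in 10 of 18. Both contrasts include the N-S- libraries of 500 degree days, which correlated with each other less than other replicates did. The part of those libraries in the interaction was not tested. The low-N pair also differed by 0.5 mM N.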

How the results depend on the processing

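At 500 degree days S supply follows the sequencing lane, and the N-S- libraries stood apart. Fitted to the compared libraries alone, the number of the 40 genes called was 0 without S at low N (7 in the fit to all libraries), 0 for N without S (6) and 0 for the interaction (2). The interaction gave 1 with DESeq2 size factors, 1 with TMM over the tested genes and 4 without the expression filter. The cause was not tested, beyond the fewer samples or genes that some of these fits hold. With DESeq2 size factors the median change at low N was 0.42 (0.31 with TMM), and the median interaction over all tested genes moved by -0.10.

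With each replicate left out in turn, the number called ranged from 8 to 10 for S averaged over N, 4 to 7 at high N, 5 to 7 at low N, 1 to 7 for N without S, 0 to 1 for N with S, 1 to 3 for the interaction and 12 to 13 from 100 to 200 degree days. The median change ranged from 0.14 to 0.27 for S averaged over N, 0.24 to 0.28 at high N, 0.21 to 0.41 at low N, -0.055 to 0.24 for N without S, -0.14 to 0.088 for N with S and 0.16 to 0.34 from 100 to 200 degree days. Of the 36 calls for named genes, 17 held in every alternative and 19 were lost in at least 1, with none reversed. Reversals were found in genes without a call. With a replicate left out, TmLoc011398 ranged from -0.083 to 0.34 averaged over N and from -0.26 to 0.55 at low N. TmLoc006613 ranged from -0.33 to 0.69 averaged, from -0.21 to 0.54 at high N (-0.0067 with TMM over the tested genes) and from -0.69 to 1.35 at low N. TmLoc000415 ranged from -0.60 to 0.091 at high N, and TmLoc011270 from -0.39 to 0.68 at low N.

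Replicate numbers did not pair the samples, as their correlations stayed at or below 0.067. With the replicate number as a block the numbers called were 10, 7, 7, 7, 0, 2 and 13 for S averaged over N, S at high N, S at low N, N without S, N with S, the interaction and 200 against 100 degree days. Leaving the 3 N-S- libraries of 500 degree days out of the fit, an alternative chosen after seeing the data, as was TMM over the tested genes, gave 7, 0 and 13 for S at high N, N with S and 200 against 100 degree days. The rule chose 35 of the same 40 genes with DESeq2 size factors, 39 with a pseudocount of 5 and 38 with TMM over the tested genes.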
